A study of Caenorhabditis elegans with 2 samples.

Results

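The regions described here lie on the X chromosome of Caenorhabditis elegans, away from the genes of small RNAs, in a chromatin immunoprecipitation and sequencing (ChIP-seq) experiment on AMA-1, the largest subunit of RNA polymerase II. They were selected on measured values, since each region is a call made from the ChIP signal and its summit, the base of highest signal, had to lie more than 250 bp from every annotated tRNA, snoRNA and snRNA gene. Of the 30000 regions in the list made from both replicates together (the pooled list), 3554 were on X and 3361 of those were kept. The same rule left 25921 regions on the 5 autosomes, which serve as the comparison, and 29282 in the nuclear genome.

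There were 2 samples, labelled as biological replicates of a single group, and no second condition. Both were whole young adult worms, a pool of males and females, of the strain YL489. These worms carried the allele unc-119(ed3) on chromosome III and the array vrIs104, a transgene of AMA-1 fused to GFP and FLAG, with the pie-1 promoter before it and the puf-5 3' untranslated region after it, and with a working copy of unc-119. The pie-1 promoter is active in the germ line, so the tagged protein was under germline control, while the labels name the immunoprecipitated target only as ama-1 and do not say whether the tag or the protein itself was bound. All cell types of the worm were mixed, and a site bound in few cells cannot be told apart from a weak site in many.

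RNA polymerase II transcribes protein-coding genes and many noncoding ones, and ChIP of its subunits marks promoters, gene bodies and the stretch past the 3' end where transcription stops. The X chromosome of C. elegans is kept largely silent in the germ line, and few genes that act only in germ cells lie on it. In the somatic cells of hermaphrodites the dosage compensation complex, a condensin-like assembly, binds both X chromosomes and lowers their transcription. It is recruited at sites on X that carry clustered copies of a short motif with the core GCGCAGG.

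Sequences at 6 of the 16 strongest X regions are shown first, picked after their letters were seen to illustrate a motif that is counted below over all regions. Each line gives a summit with 50 bases to either side, from the plus strand of the WBcel235 (ce11) genome, with capitals marking GCGCAGG or its reverse complement CCTGCGC. The first 5, in places 1, 2, 4, 14 and 16 by signal on X, hold that core, and the last, in place 3, does not. Of the 12 strongest X regions 5 held it, so these lines over-represent it.
mom-1 intron, chrX:6296485-6296585: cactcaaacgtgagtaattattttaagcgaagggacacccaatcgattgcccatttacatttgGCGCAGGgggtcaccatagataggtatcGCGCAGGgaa
near W02H3.3, chrX:11094160-11094260: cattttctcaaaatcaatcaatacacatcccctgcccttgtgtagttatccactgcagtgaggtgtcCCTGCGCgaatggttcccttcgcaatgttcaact
near nspc-17, chrX:14525841-14525941: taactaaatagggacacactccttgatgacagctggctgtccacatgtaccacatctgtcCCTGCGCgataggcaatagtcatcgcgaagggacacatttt
near F22H10.2, chrX:16682093-16682193: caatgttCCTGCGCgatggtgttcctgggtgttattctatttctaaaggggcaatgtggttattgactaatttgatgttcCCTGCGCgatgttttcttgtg
near hpk-1, chrX:4209210-4209310: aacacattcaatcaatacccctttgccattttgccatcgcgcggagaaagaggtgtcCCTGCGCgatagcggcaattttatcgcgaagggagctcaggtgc
in C30E1.9, chrX:16931616-16931716: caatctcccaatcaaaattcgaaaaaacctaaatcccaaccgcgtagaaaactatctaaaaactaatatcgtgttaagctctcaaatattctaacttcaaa

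The core was held by 8 of the 20 strongest X regions (40%, 95% interval 19.1 to 63.9) within 150 bp of the summit, searched on both strands, and by 0 of the 20 strongest autosomal regions (interval 0 to 16.8%). Among the strongest 50 it was found in 12 on X (24%, 13.1 to 38.2) and in 1 on the autosomes (2%, 0.0506 to 10.6). The background is given by the 58866 successive windows of X of that length, of which 0.584% held it. In the separate list of replicate 1 it was found in 11 of the 50 strongest X regions and in that of replicate 2 in 9 of 50, against 0 and 1 of the 50 strongest autosomal regions. All these intervals are exact binomial (Clopper-Pearson) ones over regions and cover counting error only.

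The share of X regions with the core fell with rank. It was 4 of 6 regions among ranks 1 to 100 of the pooled list, 4 of 11 among the next 200 ranks and 7 of 201 in the bin that ends at rank 3000. In the bin that ends at rank 20000 it was 5 of 1201 (0.416%, 0.135 to 0.969), an interval that includes the 0.584% of X windows. Over all 3361 X regions it was 0.952%, and over all autosomal regions 0.698%, so the difference lay mainly in the strongest regions. A match of letters is a description and does not show which protein was bound there.

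**Figure D1:**
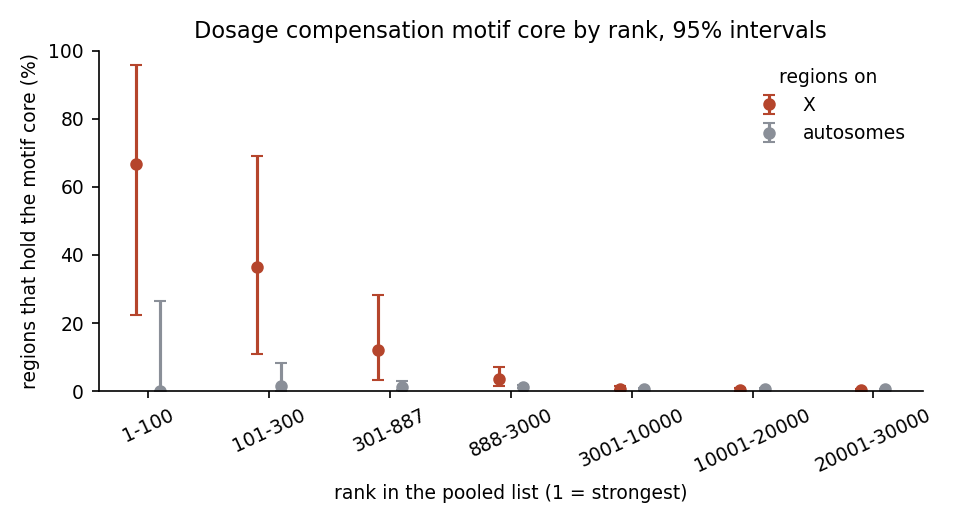
Share of regions that hold, within 150 bp of the summit, the core of the dosage compensation motif, in bins of rank in the pooled list, with exact binomial 95% intervals. The X points lie at 66.7% in the first bin and at 12.1% in the bin that starts after rank 300, while the autosomal points lie between 0 and 1.56% in every bin.

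Every sequence of 7 letters was also counted in the same 50 strongest X windows, without naming a motif. For the core this restates the count given above, so it gives no independent support. Of the 85 such sequences held by 10 or more of the windows, the core took the second place by its ratio to all X windows, at 41.1. Just above and just below it, at ratios of 45.1 and 18.1, stood CCCTGCG and GCAGGGA, which overlap it. The next ratio was 4.90. The 50 windows held 15 copies of the core, of which 11 were preceded by C, 12 were followed by G, and 7 had TC before and GA after. Among all 357 copies on X, 13 had those flanks, and among 1642 autosomal copies 2 had them. A region summit lay within 150 bp of 10 of the 13 X copies, at 9 distinct regions, and of neither of the 2 autosomal ones. Whatever their flanks, 36 of the 357 X copies and 181 of the 1642 autosomal copies had a summit that near. Of the 13 X copies, 7 were those of the 50 strongest X regions, from which the flanks were read. Only 2 autosomal copies had the flanks, too few for a comparison. The flanking letters were read from the strongest X regions after their values were seen, so these counts describe them and give no independent support.

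A variant with A as the fourth letter, GCGAAGG, was also seen in the printed sequences at mom-1, W02H3.3, nspc-17 and hpk-1, and was counted after they were read. It was held by 7 of the 20 and 9 of the 50 strongest X regions, by 0 of the 50 strongest autosomal ones and by 1.08% of X windows. Either form was present in 11 of the 20 strongest X regions (55%). The other motifs searched, on both strands, showed no such excess over the strongest autosomal regions. GGTTCGA, a form of the tRNA promoter box, was in 4 of the 50 strongest X regions and 5 of the 50 autosomal ones, GAGAGA in 15 and 19, TATAAA in 18 and 13, and TTTCAG, the usual letters at a worm splice acceptor, in 16 and 22. Against all X windows, 2 of them were more frequent in the 50 strongest X regions. These were GGTTCGA (8%, 2.22 to 19.2, windows 2.00%) and GAGAGA (30%, 17.9 to 44.6, windows 13.8%). The rule removed regions near annotated tRNA genes only. Of all X members, 3 (0.0893%) lay within 250 bp of a tRNA pseudogene of the RefSeq annotation, and other tRNA-like sequence was not searched for. For TATAAA and TTTCAG the window shares were 32.0% and 43.1%, within the intervals of the strongest 50. Over all members TTTCAG was in 38.98% of X regions and 49.4% of autosomal regions. The windows of X and of the autosomes differed in the same direction, at 43.1% and 49.1%.

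The strongest region on X lay in an intron of mom-1, which encodes a Porcupine-like protein needed for Wnt secretion. Its signal, the value in column 7 of the deposited list, was 118.3 in the pooled list, 65.6 in replicate 1 and 41.8 in replicate 2, giving ranks of 52, 33 and 256. The second, with a summit 2742 bp from W02H3.3, had signals of 116.6, 54.5 and 61.9 and ranks of 54, 48 and 79. The fourth lay 710 bp upstream of nspc-17, a gene of a nematode-specific peptide family, with signals of 106.7, 72.7 and 42.7 and ranks of 66, 29 and 240. These 3 regions were near the top in both replicates, and in each the core lay within 20 bp of the summit. Signals of different lists are not on a stated common scale, so ranks are compared and not signals.

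The third strongest region lay in C30E1.9, a noncoding RNA gene 14770 bp long, and held no copy of the core. Its signal was 111.2 in the pooled list, 58.4 in replicate 1 and 49.8 in replicate 2, and it ranked 59, 41 and 151. That noncoding gene held 12 members in all, among them those in places 9 and 15 on X with pooled signals of 75.7 and 60.9. The 3 strongest of them were 84 to 161 bp wide, against a median of 280 bp, and their central GC content was 31.7%, 51.5% and 19.8%. Replicate 1 ranked the latter pair 1364 and 3069, far below replicate 2, which ranked them 132 and 412.

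The remaining regions among the 12 strongest had pooled signals from 65.2 to 97.5. The fifth lay 588 bp from F55G7.5 and was ranked 36 in replicate 1 and 1153 in replicate 2. The sixth lay 183 bp past the 3' end of T27A8.7 (ranks 39 and 164) and the seventh 511 bp from WBGene00020828, a protein-coding gene for which the annotation gave no symbol (ranks 198 and 129). Both of these held the core, and the seventh also lay within 250 bp of the noncoding gene T26C11.3. The eighth lay 212 bp upstream of T13C5.6 (ranks 114 and 167) and the tenth 1006 bp upstream of fbxb-58, an F-box gene (ranks 336 and 251). The eleventh lay 61 bp past the 3' end of nipi-3, which encodes a Tribbles-like kinase of innate immunity, and was ranked 61 and 1603. The twelfth lay 5070 bp from adm-2, which encodes an ADAM metalloprotease, and was ranked 201 and 741. Of these 12 regions, 8 had a summit outside protein-coding genes and more than 500 bp from their ends, 2 lay at a 3' end, 1 at a 5' end and 1, that of mom-1, in a gene body.

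Other strong regions lay near genes of varied function. After mom-1, the strongest in gene bodies were in an intron of F09A5.3, within 250 bp of the microRNA genes mir-54 and mir-55 (pooled signal 57.95, ranks 613 and 248 in the replicates), and in an intron of ugt-50, which encodes a UDP-glucuronosyltransferase (52.9, ranks 760 and 903). A further ugt-50 region with the core had a signal of 51.1 and a rank of 67 in replicate 1, and no region of replicate 2 overlapped it. At 5' ends the strongest were those of T13C5.6, of ZK816.3 (49.8, ranks 563 and 697) and of sucl-1, which encodes a subunit of succinate-CoA ligase (46.5, ranks 11574 and 2839). Noncoding genes also lay within 250 bp of 2 of these summits, C14F11.14 at T13C5.6, and ZK816.8 and ZK816.9 at ZK816.3. At 3' ends the strongest were those of T27A8.7, nipi-3 and F19H6.6 (65.1, ranks 296 and 590). The windows at T13C5.6 and ZK816.3 shared a run of 34 identical letters, the longest between any pair of the 50 strongest X regions, which occurs 3 times in the nuclear genome. The central 51 bp of each of the 50 strongest X regions occurred once.

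Near the top of the ranking X was well represented, and below the first 100 it was not. X held 4 of the 10 strongest nuclear regions of the pooled list (40%, 12.2 to 73.8), 11 of the strongest 50 (22%, 11.5 to 35.96) and 17 of the strongest 100 (17%, 10.2 to 25.8), against 17.7% of nuclear bases. Its share was 25 of 200 (12.5%), 46 of 500 (9.20%, 6.81 to 12.1) and 11.5% of all 29282. The lists of the replicates differed at the very top, where X held 5 of 10 regions in replicate 1 and 1 of 10 in replicate 2, and both gave 16 of 100. The optimal list, the authors' shorter list, was the same as an equal number of the strongest regions of the pooled one. It held 50 of the 3361 X regions (1.49%), where 1.8% of all nuclear members were in it.

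**Figure D2:**
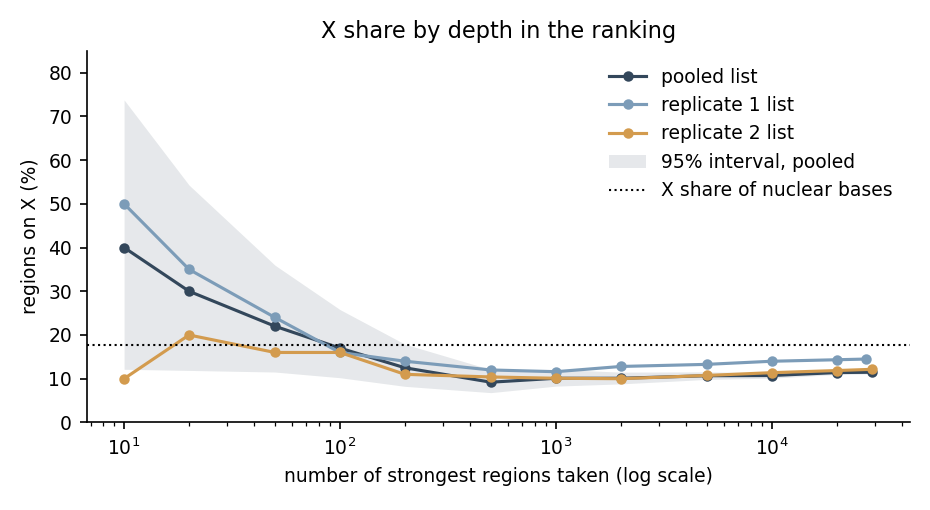
Percentage of the strongest regions that lie on X as more of the ranking is taken, for 3 lists, with the exact binomial 95% interval of the pooled list and the X share of nuclear bases (17.7%). The pooled and replicate 1 curves start at 40% and 50% for the strongest 10 regions and end at 11.5% and 14.5%, while replicate 2 starts at 10%.

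The typical X region ranked close to the typical autosomal one. The median percentile of X regions in the pooled list, with 100 for the strongest, was 48.0, and the medians of the autosomes ran from 48.1 to 50.3. The median signal was 10.85 on X and 11.03 on the autosomes. At the limit of the rule, the regions just inside had summits 260 and 275 bp from a small RNA gene and signals of 9.56 and 29.6, and those just outside had summits at 245 and 248 bp and signals of 11.8 and 9.75. The 193 X regions that the rule removed had a median signal of 46.9 and reached 146.1.

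Per Mb, regions were sparser on X than on any autosome in the pooled list. There were 189.7 regions per Mb on X, 216.5 on V, 285.2 on IV, 304.1 on II, 385.8 on I and 431.0 on III. The density on X was 0.604 times that of the autosomes combined. In the list of replicate 2 the ratio was 0.644 and X was again lowest, at 200.5 per Mb against 225.0 on V. In the list of replicate 1 it was 0.790, and the density on X, 223.5 per Mb, was slightly above the 221.6 on V. The order of X and V therefore rested on the list, while both stood below the other autosomes in all 3. Protein-coding genes were also sparsest on X, at 154.1 per Mb against 187.6 to 238.7 on the autosomes. Per protein-coding gene the pooled list had 1.23 regions on X, 0.907 on V and 1.35 to 2.25 on the other autosomes.

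**Figure D3:**
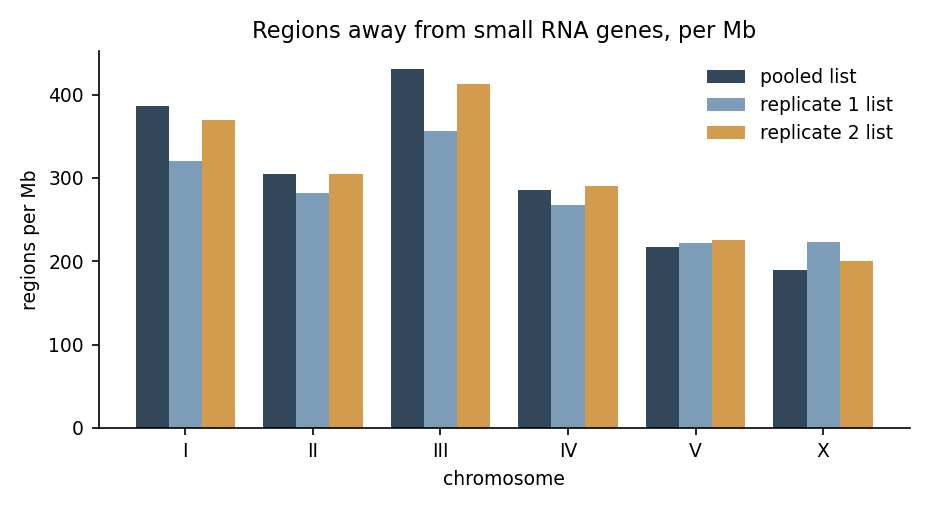
Regions per Mb on each chromosome in the pooled list and in the lists of the 2 replicates, after removal of those near small RNA genes. X is lowest in the pooled list (189.7) and in replicate 2 (200.5), and in replicate 1 X (223.5) and V (221.6) are nearly equal.

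Along X the density was lower on average in the middle stretch than in the outer ones, but not evenly so. In bins of 1 Mb it ran from 123 regions, between 9 and 10 Mb, to 278, between 2 and 3 Mb, with a median of 191. When each chromosome was cut into 3 equal stretches, the middle one on X had 0.843 times the density of the outer ones, with 168.8 regions per Mb against 203.5 on the left and 196.7 on the right. On the autosomes this ratio was 1.11 to 1.39. The middle stretch was the densest on I, III and V, on IV it was close to the left one (312.1 and 310.4 per Mb), and on II the right one was denser (355.8 against 346.3). Counts per bin in the lists of the replicates gave a Spearman rho of 0.553 over the 17 full bins of X, and both lists had their highest count between 2 and 3 Mb. The rho between regions and protein-coding genes per bin was -0.18 on X. On the autosomes it ran from -0.28 to 0.52. The bins of a chromosome share their libraries, so these correlations describe the pattern only.

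**Figure D4:**
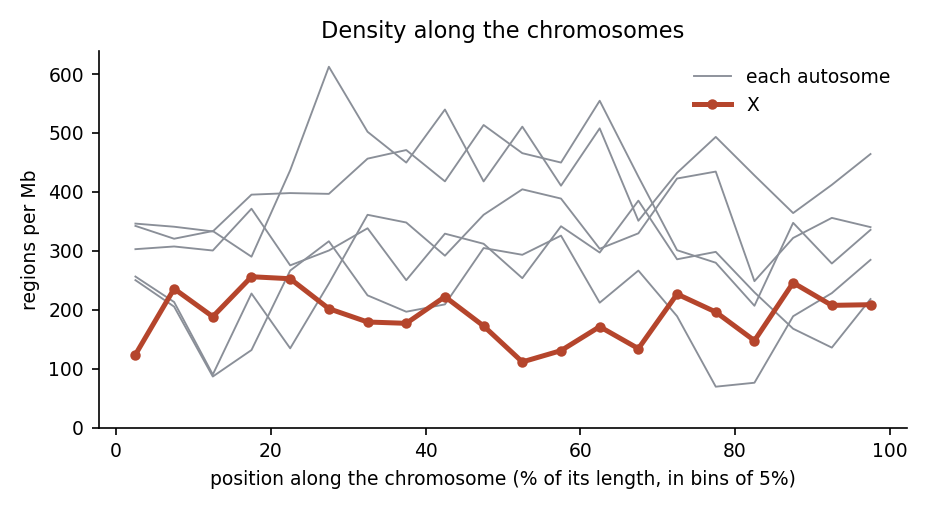
Regions per Mb of the pooled list in bins of 5% of chromosome length, for X (bold) and for each autosome (thin). On X the lowest value, 111.7 per Mb, lies just past the middle of the chromosome, and the highest, 256.2, lies between 15% and 20% of its length.

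Neighbouring X summits had a median distance of 1216 bp, and the medians of the autosomes were 1018 to 1095 bp. The longest stretch of X with no member ran for 207269 bp, from 10818362 to 11025631, and held the 5' ends of 42 protein-coding genes. The lists of the replicates each had 9 regions in it. At the other extreme, 468 of the 983 genes assigned a region had 3 or more. The most, 27, were at lin-14, a regulator of developmental timing 20312 bp long. The gene sma-9, which encodes a Schnurri-like transcription factor of body size signalling, had 20, and nhr-40, a nuclear hormone receptor gene, had 22. The strongest lin-14 region had a pooled signal of 36.6 and ranks of 1743 and 16435 in the replicates. The strongest sma-9 region had 40.6 and a pooled rank of 732, within the optimal list, and the strongest nhr-40 region had 36.8 and a rank of 946.

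Relative to protein-coding genes, X regions lay less often at 5' ends and more often away from genes than autosomal ones. Summits within 500 bp of a 5' end made up 525 of 3361 (15.6%), against 21.9% to 23.9% of the regions of each autosome, written here as the lowest and the highest autosome. This was 1.04 times the share of X bases in that class, and the same ratio was 1.05 to 1.34 on autosomes. The 3' ends took 516 (15.4%, autosomes 14.6% to 15.5%), which was 1.43 times their share of X bases (autosomes 1.05 to 1.42). Gene bodies took 1494 (44.5%, autosomes 44.9% to 49.6%). The remaining 826 (24.6%) lay in none of these, against 12.5% to 16.4% on autosomes. That last share was 0.736 times its share of bases, while the autosomal ratios were 0.564 to 0.674.

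For the shares at 5' ends and away from genes, both replicate lists placed X outside the autosomes as the pooled list did. The share at 5' ends was 16.3% on X in replicate 1 and 17.1% in replicate 2, below all autosomes in each (at least 21.9% and 22.6%). The share away from genes was 26.2% and 25.9%, above all autosomes (at most 19.3% and 17.3%). For gene bodies, X lay within the autosomal range in both lists (43.5% in 41.9% to 50.2%, and 43.1% in 42.6% to 47.6%). So did the 5' share relative to bases, at 1.08 times in replicate 1 (autosomes 1.06 to 1.26) and 1.14 times in replicate 2 (1.09 to 1.40). By the annotation, 26.8% of X summits fell in exons and 34.2% in introns, against 33.6% and 37.5% on autosomes. Summits at X 5' ends lay a median of 74 bp upstream of the annotated start, and on autosomes 25 bp upstream.

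The contrast was larger among the strongest regions. Of the 50 X regions of the optimal list, 21 (42%, 28.2 to 56.8) lay away from gene ends and bodies, against 5.15% to 10% on the autosomes. At 5' ends there were 9 (18%, autosomes 36.6% to 46.3%), at 3' ends 11 (22%, autosomes 29.8% to 36.1%) and in gene bodies 9. Of the 12 X regions with the motif core, 6 lay away from genes, and of the 38 without it 15 did (39.5%), so the excess away from genes was present in both. Regions narrower than the usual 280 bp numbered 8 among these 50 and 33 among the 478 strongest autosomal ones. A gene of the annotation class ncRNA lay within 250 bp of the summit of 8.45% of X regions and 4.23% of autosomal ones. Such genes were themselves denser on X, with 2520 in its 17.7 Mb and 5244 in the 82.6 Mb of the autosomes. Their part in the shares by position was not tested beyond the removal of short noncoding genes described in the closing section.

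**Figure D5:**
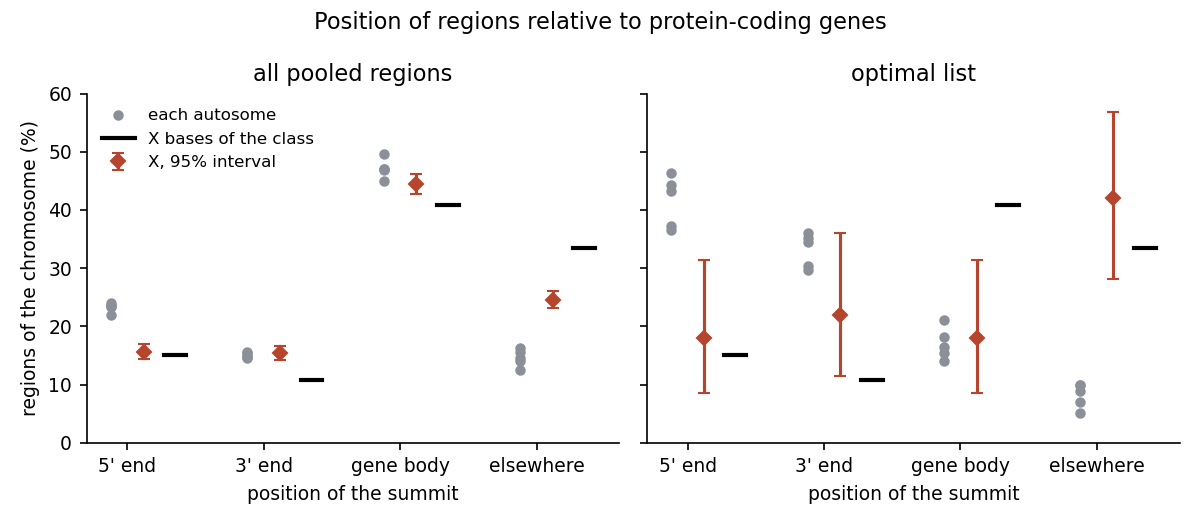
Share of each chromosome's regions by position of the summit, for the whole pooled list (left) and the optimal list (right), with X as diamonds with exact binomial 95% intervals, each autosome as a dot and the share of X bases in the class as a bar. In the optimal list 42% of X regions lie away from gene ends and bodies while no autosome exceeds 10%.

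Over the whole lists, the 2 replicates agreed less often on X regions than on autosomal ones. Only in direct comparisons of short tops of the 2 lists was this not so. An X region was overlapped by at least 1 bp in replicate 1 in 1756 cases (52.2%), in replicate 2 in 1956 (58.2%) and in both in 894 (26.6%, 25.1 to 28.1). On the autosomes the share overlapped in both was 29.6% to 32.5%. The difference was in replicate 2, where the autosomal shares were 62.1% to 65.2%, and not in replicate 1, where they were 51.97% to 53.04%. In neither list was there a region at 543 X members. Taken directly, 25.3% of the X regions of replicate 1 met one of replicate 2 and 27.2% the other way, against 35.8% and 32.0% on the autosomes. Among the strongest 300 of each list the X shares were 26.9% and 43.8%, above the autosomal 17.4% and 35.6%, from 26 and 16 X regions. In tops as long as the optimal list they were 22.6% and 35.2%, against 19.4% and 24.1%. The first of these lay within the range of single autosomes (11.7% to 26.7%), and the second above it (18.6% to 26.9%). Among the strongest 5000 they were lower on X again, at 16.7% and 21.8%, against 22.7% and 22.4%.

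Agreement rose with rank, which follows in part from construction. The pooled signal is made from both replicates, and the optimal list is labelled as thresholded by IDR, a measure of replicate agreement. Of the 50 X regions of the optimal list, 44 (88%, 75.7 to 95.5) were overlapped in both lists. The autosomal shares, 91.5% to 95.04%, were all higher but lay within that interval. In 16 of them the overlapping regions were also strong in both lists, that is, in a top group of each list as long as the optimal list, which was so for 98 of the 478 autosomal ones. Those with the core made up 7 of these 16, so that 7 of 12 regions with the core (58.3%) and 9 of 38 without it (23.7%) ranked that high in both. The 12 were also stronger in the pooled list, with a median signal of 63.95 against 48.8 for all 50. How far this difference in signal accounts for the ranks was not tested. Ranks in the replicates had a Spearman rho of 0.207 over the X regions of the optimal list that were in both, and of -0.18 to -0.06 on the autosomes. That list is a cut on the pooled signal, and how far the cut shaped these values was not tested. From its end to rank 5000, rho on X was -0.144, within the autosomal range (-0.184 to -0.0864). Past rank 5000 it was 0.0833, again within that range (0.0493 to 0.0885). Over all members it was 0.257 on X, above the autosomes (0.191 to 0.243). Past rank 5000 of the pooled list only 19.7% of X regions were overlapped in both (autosomes 22.3% to 24.5%), so weak X regions were mostly seen in a single replicate or in the pooled list alone.

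Of the 2731 protein-coding genes on X, 455 (16.7%, 15.3 to 18.1) had a region within 500 bp of the 5' end, where 28.5% of all nuclear protein-coding genes did. On the autosomes combined it was 30.4%, and the nearest chromosome was V, with 18.6%. In replicate 1 the X share, 20.9%, was not below that of V, 20.3%, and in replicate 2 it was 19.9% against 21.2%. In the optimal list it was 9 genes (0.330%, 0.151 to 0.625) against 1.35% on the autosomes.

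The gene lists below count regions within 500 bp of a 5' end only, and their X shares are to be read beside the 16.7% of all X genes. Both X-linked ribosomal protein genes had one, rpl-11.2 with a pooled signal of 15.6 and rpl-25.1 with 7.05, and on the autosomes 70 of 79 did. The rpl-11.2 region was overlapped in replicate 2 alone, and the rpl-25.1 one in replicate 1 alone. The elongation factor gene eef-1A.2 had a region at rank 825, with ranks of 1163 and 2236 in the replicates, and was 1 of 3 X-linked translation factor genes with one. Among genes of stress and protein folding, 4 of 9 had one (44.4%, autosomes 32 of 83), led by hsp-3, which encodes an endoplasmic reticulum chaperone (36.6, ranks 1521 and 2133), and by hsp-25, a small heat shock protein gene (15.4).

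Genes of muscle and cuticle had such a region about as often as X genes in general, at 14.3% in each list. Of 14 X-linked muscle genes 2 were, the actin gene act-4 (42.6, ranks 1198 and 573) and the myosin light chain gene mlc-2 (23.6, found in replicate 2 alone), against 7 of 23 on the autosomes. Of 28 cuticle collagen genes 4 were, with col-181 (18.998) and col-19 (15.96) the strongest, against 26 of 139. In the list of heparan sulfate and matrix genes it was 1 of 10, the sulfotransferase gene hst-2 (12.2).

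Among neuronal lists the shares differed. In the list of neuron and synapse genes 10 of 22 X-linked members had a region (45.5%, autosomes 13 of 39), the strongest at mec-4, a touch channel subunit (22.1, ranks 13748 and 11764), and at syd-2, which encodes liprin-alpha (13.8, found in replicate 1 alone). Most of the others had weak signals, and the median of the 10 was 7.24. Of 28 ligand-gated channel genes 2 had one, lgc-47 (17.9) and the acetylcholine receptor gene acr-12 (16.6). None of 18 potassium channel genes did, egl-36 among them, and on the autosomes 4 of 44 did. Neuropeptide genes had one in 3 of 37, led by nlp-76 (22.0) and nlp-14 (11.3). For innexins it was 1 of 6, inx-2 (8.38), and for chemoreceptors 1 of 34, the diacetyl receptor gene odr-10 (6.38). None of 4 G protein genes did, gpa-5 among them.

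Among regulators, 10 of 26 X-linked nuclear hormone receptor genes had a region at the 5' end (38.5%), above the 16.7% of X genes in general, and on the autosomes 32 of 247 did (12.96%). The strongest of these 5' regions were at nhr-71 (15.7) and nhr-27 (14.9), and none was in the optimal list. Stronger regions of this family lay elsewhere in or near the genes, as in the body of nhr-48 (37.2) and at the 3' end of nhr-40 (36.8), which had no region at its 5' end. Homeobox genes had one in 4 of 23, led by ceh-21 (15.1) and ceh-41 (12.3). In the list of X signal elements and dosage compensation none of 6 did, among them ceh-39, an X signal element, and on the autosomes 4 of 8 did.

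Lists of intestine, histone and germline genes had few X-linked members. None of the 5 X-linked vitellogenin genes, which encode yolk proteins and include vit-1, had a region at its 5' end. Among other intestinal genes 2 of 6 did (33.3%, autosomes 2 of 14), the cathepsin B gene cpr-6 (13.99) and the aspartyl protease gene asp-4 (6.03). None of 5 histone genes did, the linker histone gene hil-3 among them. In the list of P granule and small RNA pathway genes it was 0 of 4, with meg-3 among them, and 12 of 21 on the autosomes. The lists of meiosis, oogenesis and sperm genes had no X-linked member.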

How the data were processed

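The measurements were ChIP-seq region lists for 2 replicates of 1 group. In the deposited lists column 7 holds a signal of unstated scale and column 9 a −log10 q-value, per the file contents, and both were used as the authors gave them. Column 9 reached 3.9 in 347 X regions and so could not rank the strongest. The pooled and optimal lists are the authors' own, on the ce11 build. For the aligner, the peak caller and the value of the IDR threshold of the optimal list, nothing is given in the sources used here. The labels also name a control, which was not analysed here. Read depth is unknown, since the lists give no counts.

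Positions came from the WBcel235 annotation (Ensembl release 115), and sequences from the RefSeq genome of that build. Summits were classed first by 5' ends of protein-coding genes (500 bp to either side), then by 3' ends, then by gene bodies, and assigned to the nearest such gene. Overlap meant at least 1 bp. The code was tested on simulated regions (scipy 1.17.1 and pandas 2.3.3 under Python 3.11.15). With 1 group no test between conditions was possible, so X was set beside the range of the 5 autosomes and each replicate list. The members, the 23 gene lists and the motifs were chosen with earlier results of these data known. Genes named were those at the 12 strongest X regions, at the 3 strongest of each position class, and per list the 2 strongest occupied X-linked members, or the first where none was occupied. Genes with the most regions and a few others were named after their values were seen.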

Additional observations from a re-analysis of the deposited data

How the results depend on the processing

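The alternatives were other distances from small RNA genes (100 and 500 bp, or the whole region), a wider set of noncoding genes kept away from, other windows at gene ends (250 and 1000 bp), the strongest 10000 regions, the optimal list, each replicate's own list (leaving the other replicate out), a stricter overlap and another order of classes. Over 87 recomputed values, 40 moved by less than the spread between replicate lists or the counting interval and 47 by more. The 3 other distance rules moved none.

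The density ratio of X to autosomes was below 1 throughout, at 0.604, with 0.487 in the optimal list and 0.644 to 0.790 in the replicate lists. The median percentile of X moved under none. X regions per 1000 of the optimal list, 56.4, were 60.9 to 94.7 in equally long tops of the replicate lists.

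With windows of 250 and 1000 bp the shares were 8.06% and 28.03% at 5' ends, 8.66% and 20.1% at 3' ends, 52.4% and 33.7% in bodies, 30.9% and 18.2% elsewhere, and 9.85% and 23.7% of X genes. In the strongest 10000 they were 17.1%, 17.1%, 40.9% and 24.9%, with 6.26% of genes, and in the optimal list 18%, 22%, 18% and 42%, with 0.330%. The replicate lists gave 16.3% to 17.1%, 13.9% to 14.1%, 43.1% to 43.5% and 25.9% to 26.2%, with 19.9% to 20.9%. Keeping away from short noncoding genes too gave 16.2% at 3' ends, 44.7% in bodies, 23.7% elsewhere and 15.5% of genes. Placing bodies first gave 8.03%, 6.46% and 60.9% for 5' ends, 3' ends and bodies. The shifts with the window and the order of classes follow from their construction, and for the other settings the cause was not tested.

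The share overlapped in both replicate lists, 26.6%, was 51.1% in the strongest 10000, 88% in the optimal list and 15.9% where at least 50% of the region had to be covered. The rise in the stronger sets follows in part from construction, since the pooled signal is made from both replicates. For the motif core, alternatives were chosen after seeing the data: 24% of the strongest 50 X regions became 40% of the strongest 20, 13% of the strongest 100 and 16% within 50 bp of the summit, and the replicate lists gave 18% to 22%. No paired analysis was possible because there was a single group. Depth is unknown, so how it limits the weak X regions was not tested.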
